A study of Mus musculus with 57 samples.

Results

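The messages of 10 transcription factors of cortical astroglia were followed from the first postnatal day to adulthood: the 4 nuclear factor I genes Nfia, Nfib, Nfic and Nfix, the zinc finger gene Zbtb20, the LIM homeobox gene Lhx2, the paired box gene Pax6, the homeobox genes Emx2 and Dbx2, and the orphan nuclear receptor gene Rorb. They were chosen by name, and all 10 were found among the 21118 genes of the count table. The data are counts of ribosome-bound messenger RNA from 53 libraries, 1 for each mouse, and the design asks how astroglial messages change with age and whether the sexes differ. All mice carried the Aldh1l1-L10-GFP transgene on a C57BL/6 background: the promoter of Aldh1l1, an astrocyte gene, drives a GFP-tagged ribosomal protein, and tagged ribosomes were pulled down from the whole cortex with an antibody to GFP. No other allele or treatment separates the groups, which differ in age and sex. The ages were P1, with 4 female and 4 male libraries, P4, with 4 and 4, P7, with 8 and 4, P14, with 5 and 5, P35, with 3 and 3, and adult, with 4 and 5. No untagged or unselected cortex RNA was analysed here.

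Nuclear factor I proteins bind DNA as pairs of the same or different family members, at a palindrome of TTGGC and its reverse complement GCCAA. In the embryonic mouse forebrain and spinal cord, Nfia and Nfib act in the change of radial glia from making neurons to making glia, and Nfia works with Sox9 there. Zbtb20 is a repressor that promotes the making of astrocytes in the mouse cortex. Lhx2, Pax6 and Emx2 pattern the early cortical sheet and act in its progenitors. Dbx2 is a progenitor gene of the ventral neural tube that mouse cortical astrocytes also express, and Rorb marks layer 4 neurons of the cortex as well as astrocytes.

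The start regions of the 4 members that were higher in adult than in P1 libraries are shown because their messages moved the same way. Each is 300 bases of the mouse genome from RefSeq (build GRCm38.p6), from 250 bases before to 50 bases after an annotated start, and is written in the gene's own direction. Capitals mark TTGGC or GCCAA, 1 arm of the palindrome that nuclear factor I proteins bind. The Nfic region lies at chr10:81427124-81427423 on the minus strand, at a start inside the gene, the Lhx2 region at chr2:38339031-38339330 on the plus strand, the Dbx2 region at chr15:95654722-95655021 on the minus strand, also inside the gene, and the Rorb region at chr19:19111147-19111446 on the minus strand.
Nfic: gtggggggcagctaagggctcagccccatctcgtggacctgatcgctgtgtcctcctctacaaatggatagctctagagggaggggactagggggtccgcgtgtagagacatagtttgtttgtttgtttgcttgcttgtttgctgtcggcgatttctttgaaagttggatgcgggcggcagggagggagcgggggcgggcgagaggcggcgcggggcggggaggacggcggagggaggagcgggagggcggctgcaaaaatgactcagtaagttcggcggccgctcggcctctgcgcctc
Lhx2: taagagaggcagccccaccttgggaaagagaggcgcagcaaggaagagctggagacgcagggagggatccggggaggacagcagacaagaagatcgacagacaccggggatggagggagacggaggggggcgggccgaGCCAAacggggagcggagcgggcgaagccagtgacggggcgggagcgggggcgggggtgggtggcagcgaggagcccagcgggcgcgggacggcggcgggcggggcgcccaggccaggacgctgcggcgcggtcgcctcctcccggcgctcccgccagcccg
Dbx2: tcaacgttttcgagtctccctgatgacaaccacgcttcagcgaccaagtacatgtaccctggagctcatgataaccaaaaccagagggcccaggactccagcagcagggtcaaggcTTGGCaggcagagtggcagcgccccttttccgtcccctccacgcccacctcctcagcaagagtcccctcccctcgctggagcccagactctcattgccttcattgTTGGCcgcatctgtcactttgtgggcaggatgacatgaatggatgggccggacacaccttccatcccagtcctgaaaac
Rorb: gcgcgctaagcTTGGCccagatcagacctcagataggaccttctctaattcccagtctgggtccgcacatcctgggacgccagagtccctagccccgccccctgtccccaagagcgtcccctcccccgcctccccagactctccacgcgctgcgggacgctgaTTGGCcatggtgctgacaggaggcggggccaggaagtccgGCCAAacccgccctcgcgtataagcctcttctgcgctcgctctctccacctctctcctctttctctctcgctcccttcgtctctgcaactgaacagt
The single arm was absent from the Nfic window. It began 112 bases before the start in Lhx2, 134 and 29 bases before it in Dbx2, and 239, 87 and 47 bases before it in Rorb. Lhx2 and Rorb each have a second RefSeq start region, at chr2:38351058-38351357 and chr19:19001068-19001367, which held 0 arms. RefSeq regions were at hand for 9 of the 10 members, 15 in all because some genes have several starts, and 6 of the 15 held TTGGC on either strand, against 46.7% of all 32851 mouse start regions of the same length. The full palindrome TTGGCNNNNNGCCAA was in 0 of the 15 and in 0.0365% of all regions. TAATTA, the core that many homeodomain proteins bind, was found in 5.29% of all regions and, of the members, in Emx2 and in 1 of the Nfix starts. The GC box GGGCGG, searched on both strands, was found in 35.7% of all regions and, of the members, at Nfic, Lhx2, Emx2, Rorb and 1 Nfix start. For Nfia, and for all but 1 of the Nfix starts, the bases after the start were not found in an annotated transcript of the gene (GENCODE M21). The Nfix start with TAATTA is among these, and their regions are counted all the same. A match is a string of letters, not a measured binding site.

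The 4 nuclear factor I genes are close relatives, so it was asked how much identical coding sequence could confuse their counts. The longest run shared by any pair of their coding sequences was 32 bases, between Nfic and Nfix.
Nfic and Nfix: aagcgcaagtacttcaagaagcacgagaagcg
Nfib and Nfix shared a run of at most 21 bases and the other 4 pairs runs of 17. One other overlap bears on the counts: Emx2 shares 264 exon bases with Emx2os, an RNA from the opposite strand that averaged 24.0 CPM. The strand setting of the counting is not given in the sources used here, so the Emx2 values are uncertain. Other overlaps with opposite-strand genes came to 137 exon bases in Nfix with G430095P16Rik and 4 with Lyl1, 104 in Zbtb20, 72 in Nfic and 4 in Nfia. Whether their reads were counted apart is not known either.

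The unit of level is CPM, the count divided by the TMM-adjusted library total and brought to 1 common depth. Total counts ran from 14768178 to 48541139 per library, with a median of 24033399. The lowest value of any member in any library was 4.71 CPM, for Emx2 at P7. Libraries with the same number at the end of their description name form a replicate set (1, 2, 3, 4 or 6), and 4 P7 libraries sequenced in a second run alone form another. P7 female 10, P7 male 2, P7 male 6 and P7 female 6 have samples in both runs and stay in sets 1, 2 and 6. They had the highest totals, from 42222297 to 48541139 counts, and whether these join both runs was not tested. Age and sex were tested in 1 edgeR quasi-likelihood model of all 53 libraries with the replicate set as a term, and a change is called where the Benjamini-Hochberg adjusted p over all 21118 genes is under 0.05. Differences are on the log2 scale, with their standard error (SE). The 3 libraries with low numbers of detected genes were P14 male 4, P7 female 40 and P1 female 4, and in 11 libraries the sex-linked transcripts or the description name went against the labelled sex. In sets 3 and 6 and the second run, markers of mature astrocytes were low and markers of neurons high, as described with the replicate sets further on. In such bulk samples, fewer cells of a type and less RNA per cell cannot be told apart.

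Between adult and P1 libraries, 7 of the 10 transcription factors changed. Nfic, Lhx2, Dbx2 and Rorb rose, and Nfia, Nfib and Nfix fell. Across all genes, 41.3% were called in this comparison, 21.8% higher and 19.5% lower, with a median difference of 0.06 on the log2 scale. A test over all 6 ages together called 8 of the 10, against 43.5% of all genes, and left out Pax6 and Emx2.

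**Figure D1:**
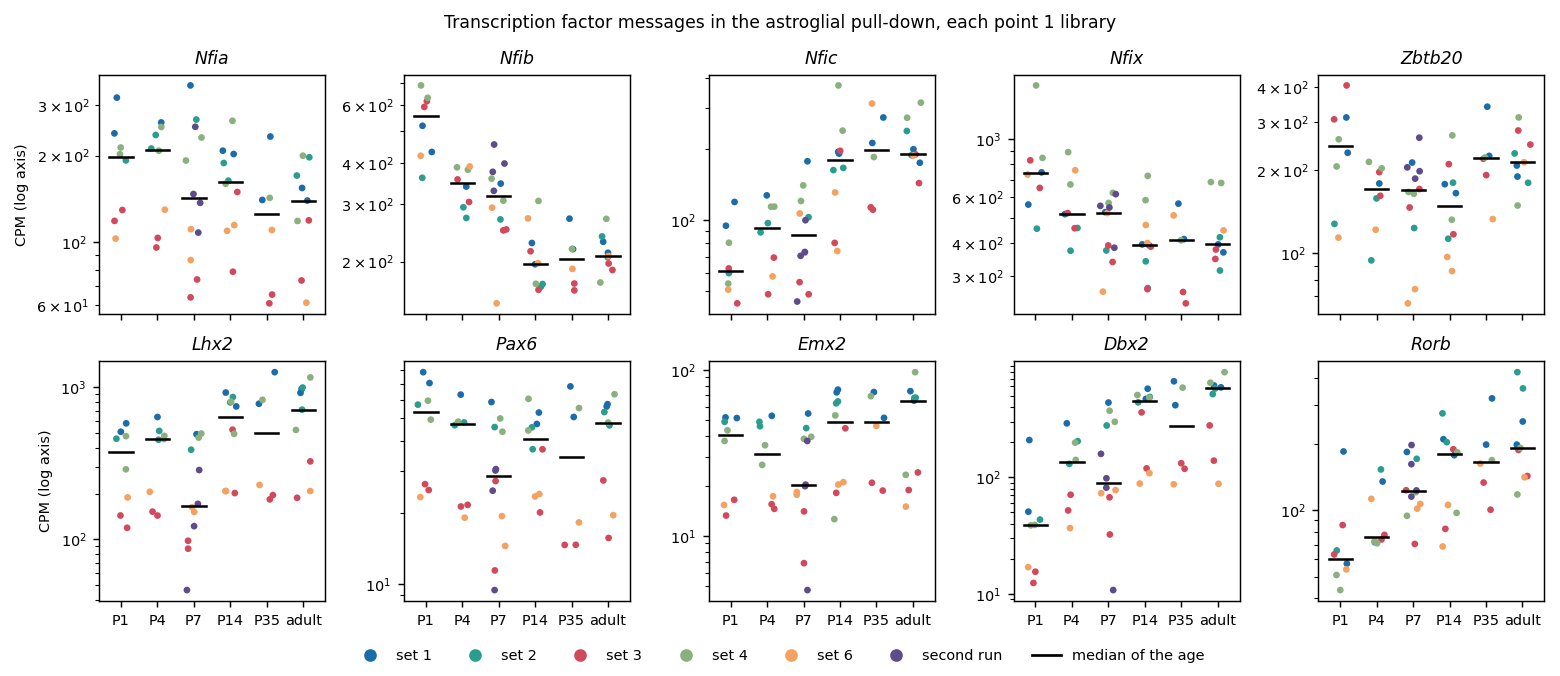
Level of each of the 10 messages in every library, in CPM on a log axis, by age on the horizontal axis. Each point is 1 library, coloured by its replicate set, and the Nfib points of all 9 adults lie below, and the Nfic points of all 9 adults above, the 8 P1 libraries.

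Nfib fell and Nfic rose between the same ages. Nfib, on chromosome 4 (GRCm38, 82290173 to 82705750, minus strand), had 173 to 269.9 CPM in the 9 adult libraries (median 208) and 360.0 to 689 CPM in the 8 P1 libraries (median 555). All 9 adult libraries lay below all 8 P1 libraries, which held for 6.26% of all genes, in either direction. Its adult minus P1 difference was −1.30 ± 0.13 (SE, edgeR quasi-likelihood, adjusted p = 1.51e-10), and its medians at P4, P7, P14 and P35 were 347, 318, 197 and 204 CPM. Nfic, on chromosome 10 (81396186 to 81455635, minus strand), had 144 to 315 CPM in adults (median 191) and 44.5 to 119.7 CPM at P1 (median 61.2). Here too the groups did not overlap, with all 9 adults above all P1 libraries. The difference was 1.59 ± 0.21 (adjusted p = 6.72e-08), and the medians between were 93.2, 86.9, 179 and 199 CPM.

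Nfix, the most abundant family member, fell as well. Nfix, on chromosome 8 (84699876 to 84800344, minus strand), had 316 to 685 CPM in adults (median 397) and 455 to 1597 CPM at P1 (median 739). The 1597 CPM belonged to P1 female 4, a library with a low number of detected genes, and the P1 males reached 846 CPM. In 7 of the 9 adults it was below every P1 library, and adult male 4 and adult female 4, both of set 4, were inside the P1 range at 680 and 685 CPM. The difference was −0.79 ± 0.15 (edgeR quasi-likelihood, adjusted p = 2.88e-05). Nfia, on chromosome 4 (97772734 to 98118874, plus strand), had 61.3 to 199.8 CPM in adults (median 139) and 103 to 319 CPM at P1 (median 197). The groups overlapped broadly, with 2 of 9 adults below all P1 libraries. Its difference of −0.52 ± 0.17 passed (edgeR quasi-likelihood, adjusted p = 0.0127). With no replicate block, but a term for the second run alone, the difference was −0.49 with adjusted p = 0.269. Between the labelled males alone it was −0.28 with adjusted p = 0.401, where 26.8% of all genes were called. Over all 6 ages Nfia passed at an adjusted p of 0.0296. That call was lost when any one of adult female 1, P35 male 10, P1 female 1, P35 male 3, P1 male 3 or P35 female 3 was left out, with adjusted p between 0.0519 (without P35 male 3) and 0.0558 (without P35 male 10), and it was 0.632 with no replicate block.

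To compare the 4 messages with each other, CPM was divided by the length of each gene's merged exons in kilobases, and each gene's share of the family sum was taken. Nfic made up 26.7 ± 1.25% of the sum in adults (SD, n = 9) and 6.59 ± 2.77% at P1 (SD, n = 8). Nfib made up 12.3 ± 2.18% in adults and 21.1 ± 3.40% at P1. Nfix was the largest share at every age, with 50.5 ± 5.38% in adults and 61.7 ± 7.69% at P1, while Nfia made up 10.6 ± 3.46% in adults and 10.6 ± 4.79% at P1. The log2 ratio of Nfic to Nfib per kilobase averaged −1.78 at P1 and −0.81 at P4, was −0.65 at P7 and 0.86 at P14, and reached 1.06 at P35 and 1.14 in adults. In adults it lay between 0.78 and 1.83, and at P1 between −2.56 and −0.68. Per kilobase, Nfic was thus the larger of the pair in every adult library and the smaller in every P1 library. The adult order rests on the merged exon lengths, 14957 bases for Nfib and 6630 for Nfic. In CPM not divided by length, the adult medians were 208 for Nfib and 191 for Nfic. A share must fall where another rises, so these shares describe the mix and not the amount. The family sum itself was 120 ± 28.7 CPM per kb in adults and 173 ± 53.1 CPM per kb at P1, where P1 female 4, of low gene number, was highest at 291.

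**Figure D2:**
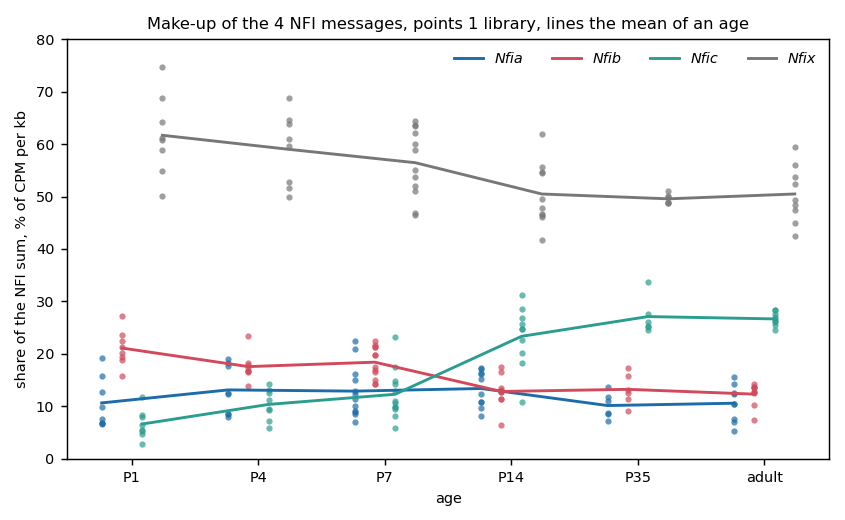
Share of the 4 nuclear factor I messages in their summed CPM per kilobase (%), by age. Points are single libraries and lines are the mean of an age; the Nfic line climbs between 6.59% at P1 and 26.7% in adults and the Nfib line runs the other way.

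Zbtb20 did not pass between adult and P1 libraries, and its medians at P4, P7 and P14 were lower than at either end. On chromosome 16 (42875881 to 43642602, plus strand), it had 149 to 311 CPM in adults (median 214) and 114 to 407 CPM at P1 (median 245), with no adult library outside the P1 range. The medians were 170.4 CPM at P4, 169 at P7, 149 at P14 and 221 at P35. The adult minus P1 difference was −0.05 ± 0.17 (edgeR quasi-likelihood, adjusted p = 0.832). It passed over all 6 ages (adjusted p = 0.00089), but not without the libraries of sets 3 and 6 and the second run (adjusted p = 0.453), an alternative chosen after the data were seen.

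Of the cortical patterning genes, Lhx2 rose while Pax6 and Emx2 did not pass. Lhx2, on chromosome 2 (38339281 to 38369733, plus strand), had 188 to 1165 CPM in adults (median 714) and 119 to 580.3 CPM at P1 (median 374). In 5 of 9 adults it was above every P1 library. The 3 lowest adults, at 188, 208 and 326 CPM, and the 3 lowest P1 libraries, at 119, 143 and 189 CPM, all belonged to sets 3 and 6, while the remaining libraries had 525 to 1165 CPM in adults and 289 to 580.3 CPM at P1. The difference was 0.81 ± 0.21 (edgeR quasi-likelihood, adjusted p = 0.00159). It was 0.94 with adjusted p = 0.125 with no replicate block, and 0.53 with adjusted p = 0.218 between the labelled females alone, where 23.4% of all genes were called.

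Pax6, on chromosome 2 (105668900 to 105697364, plus strand), had 15.6 to 63.3 CPM in adults (median 48.1) and 23.3 to 78.4 CPM at P1 (median 53.3), and the ranges overlapped at every pair of neighbouring ages. Its difference of −0.23 ± 0.18 did not pass (edgeR quasi-likelihood, adjusted p = 0.318). Emx2, on chromosome 19 (59458372 to 59465357, plus strand), had 15.0 to 96.7 CPM in adults (median 65.2) and 13.2 to 51.6 CPM at P1 (median 40.2). In 5 of 9 adults it lay above all P1 libraries, with adult libraries also near the bottom of the P1 range, and the difference of 0.42 ± 0.26 did not pass (adjusted p = 0.198). Over all 6 ages Emx2 had an adjusted p of 0.0732, which was 0.0256 without P14 male 4 and 0.0473 without P7 male 6.

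Dbx2 had the largest adult minus P1 difference of the 10. On chromosome 15 (95623563 to 95655960, minus strand), it had 87.9 to 794 CPM in adults (median 576) and 12.4 to 208 CPM at P1 (median 38.9). Its medians were 135 CPM at P4, 89.7 at P7, 453 at P14 and 273 at P35. In 7 of 9 adults it was above all P1 libraries. The overlap lay between sets: in sets 3 and 6 the 3 adult libraries had 87.9, 139 and 278 CPM and the 3 P1 libraries 12.4, 15.5 and 17.0 CPM, whereas in sets 1, 2 and 4 the adults had 515 to 794 CPM and the P1 libraries 38.7 to 208 CPM. The difference was 3.32 ± 0.32 (edgeR quasi-likelihood, adjusted p = 5.24e-11).

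Rorb, on chromosome 19 (18930605 to 19111196, minus strand), had 118 to 424 CPM in adults (median 192) and 43.5 to 185 CPM at P1 (median 60.3). In 6 of 9 adults it was above all P1 libraries, and P1 female 1, at 185 CPM, stood above the other P1 libraries, which reached 85.8 CPM. The difference was 1.45 ± 0.20 (edgeR quasi-likelihood, adjusted p = 1.50e-07), and the medians at P4, P7, P14 and P35 were 75.6, 122, 181 and 166 CPM. Because Rorb also marks layer 4 neurons, 5 markers of layer 4 and upper layer neurons were counted beside it: Rspo1 passed, at 2.66, and the other 4 did not. Their summed level was 55.9 to 124 CPM in adults and 36.4 to 86.2 CPM at P1. Their part in the Rorb difference was not tested.

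Within single replicate sets, the adult minus P1 difference had 1 direction in all 5 sets that hold both ages for 7 of the 10 members. These were the 7 called members, but the same libraries gave both results, so the match is not independent. How many of all genes kept 1 direction in this way was not counted. Set 6 compares 1 adult with 1 P1 library, and set 2 has 1 P1 library, so their differences rest on single libraries. Within-set differences in mean log2 CPM ran from −1.65 to −0.70 for Nfib, from −1.01 to −0.32 for Nfix, from −0.91 to −0.07 for Nfia, from 0.81 to 2.15 for Nfic, from 0.14 to 1.07 for Lhx2, from 2.37 to 4.20 for Dbx2 and from 1.12 to 2.56 for Rorb. They ran on both sides of 0 for Zbtb20 (−0.43 to 0.91), Pax6 (−0.39 to 0.03) and Emx2 (−0.03 to 0.53). Without sets 3 and 6 and the second run, the same 7 members were called, with differences of −1.22 for Nfib, 1.52 for Nfic, −0.74 for Nfix, −0.56 for Nfia, 0.91 for Lhx2, 3.15 for Dbx2 and 1.52 for Rorb. In that setting 5600 of all 21118 genes were called.

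**Figure D3:**
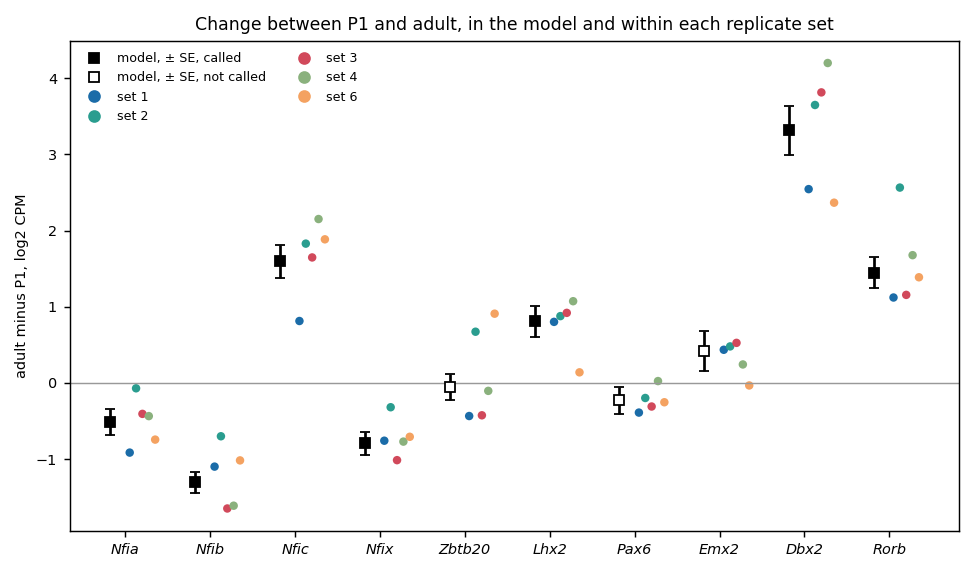
Adult minus P1 difference of each member on the log2 scale. Squares are the model with 1 SE, filled where called, and coloured points are the difference within 1 replicate set; Dbx2 stands highest at 3.32 and Nfib lowest at −1.30, and for Zbtb20, Pax6 and Emx2 the points fall on both sides of 0.

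Markers of several cell types also moved with age. Of 20 mature astrocyte markers, 19 rose and 0 fell, with summed levels of 4837 to 30210 CPM in adults and 917 to 7247 CPM at P1. Of 20 neuronal markers, 9 rose and 9 fell, with 3228 to 13986 CPM in adults and 2436 to 11494 CPM at P1. All 10 markers of dividing cells fell, with 7.97 to 21.9 CPM in adults and 184 to 562 CPM at P1. Of 11 markers of radial glia and progenitors 8 fell and 1 rose, with 426 to 2816 CPM in adults and 3867 to 20391 CPM at P1. All 10 oligodendrocyte markers rose, with 813 to 2489 CPM in adults and 110 to 294 CPM at P1. Of 10 microglial markers 4 rose, of 6 oligodendrocyte progenitor markers 2 rose and 2 fell, of 10 endothelial and mural markers 1 rose and 2 fell, of 5 choroid plexus markers 1 rose, and of 5 Cajal-Retzius markers 4 and of 5 ventral forebrain markers 5 fell. No marker in these lists was at 0 in all libraries of either age. The part of these cells in the members' differences was not tested.

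Between neighbouring ages few steps passed. In P4 against P1, where 0.44% of all genes were called, Nfib fell by 0.62 ± 0.14 (edgeR quasi-likelihood, adjusted p = 0.0212) and Dbx2 rose by 1.68 ± 0.31 (adjusted p = 0.0053). The Nfib call was lost when any one of 7 libraries was left out, with adjusted p of 0.0575 without P4 male 1, 0.0538 without P4 male 2, 0.0645 without P4 female 4, 0.0535 without P1 male 3, 0.0553 without P1 male 4, 0.0525 without P1 female 3 and 0.0545 without P1 female 4. With no replicate block neither passed, at adjusted p of 0.579 for Nfib and 1 for Dbx2, and without set 3 they had 0.344 and 0.139. The differences stayed about as large over the 11 settings tried besides leaving out single libraries, at −0.68 to −0.52 for Nfib and 1.43 to 1.79 for Dbx2. In P7 against P4, with 1.67% of all genes called, 0 members were called by edgeR, Nfib (−0.40) and Nfix (−0.48) were under an unadjusted p of 0.05, DESeq2 called 1 and limma voom 0. Leaving out P7 male 2 brought both under the threshold, Nfib at −0.57 (adjusted p = 0.0348) and Nfix at −0.67 (adjusted p = 0.0283).

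In P14 against P7, with 3.3% of all genes called, Nfic rose by 0.80 ± 0.21 (edgeR quasi-likelihood, adjusted p = 0.025) and Lhx2 by 1.04 ± 0.21 (adjusted p = 0.00432). Nfic had 74.2 to 373 CPM at P14 (median 179) and 45.3 to 178 CPM at P7 (median 86.9). Lhx2 had 202 to 925 CPM at P14 (median 639) and 46.3 to 497 CPM at P7 (median 167). The ranges overlapped for both, with 5 of 10 P14 libraries above all P7 libraries for Nfic and 6 of 10 for Lhx2. The Nfic call was lost without P7 male 2 (adjusted p = 0.108), P7 female 30 (0.0547), P14 female 3 (0.0648) or P14 male 4 (0.0801). Leaving out P7 male 6 added Nfib, at −0.45, and Dbx2, at 1.08 (adjusted p = 0.0398), to the calls. With no replicate block neither passed, at adjusted p of 0.318 for Nfic and 0.447 for Lhx2. Without set 3 they had 0.312 and 0.211. Over the same 11 settings the differences ran from 0.62 to 1.03 for Nfic and from 0.71 to 1.31 for Lhx2.

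After P14 no step of any member was called. In P35 against P14, where 1.15% of all genes were called, edgeR, DESeq2 and limma voom called 0 members, and Zbtb20 (0.43) was under an unadjusted p of 0.05. In adult against P35 the members' differences lay between −0.20 and 0.39, with SEs of 0.14 to 0.32. edgeR called 0 members and 0 genes there (0%), with 0 members and 884 genes under an unadjusted p of 0.05; DESeq2 called 0 members and 114 genes, and limma voom none of either.

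**Figure D4:**
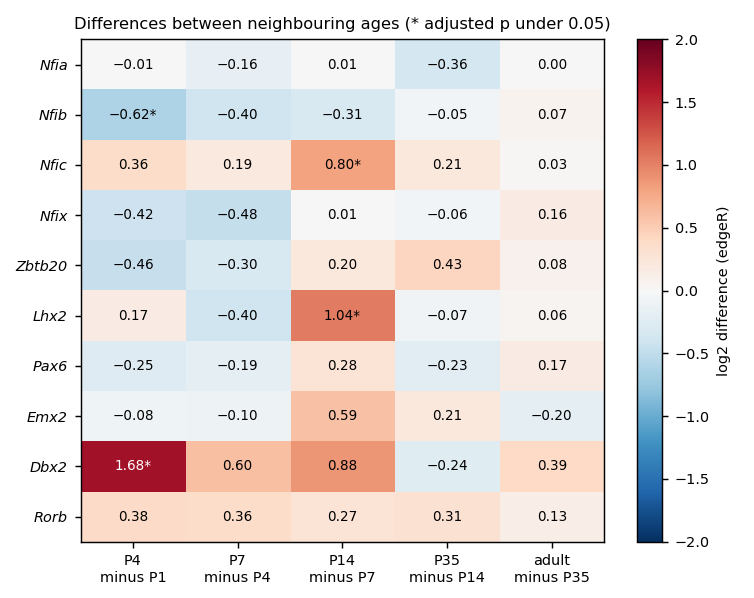
Differences between neighbouring ages for each member, on the log2 scale, from the edgeR model. Colour and printed value give the difference of the later age minus the earlier, and an asterisk marks an adjusted p under 0.05: Nfib and Dbx2 in the first step, Nfic and Lhx2 in the step between P7 and P14, and none after it.

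Per kilobase of merged exon, the order of the members changed between P1 and adult. Merged exons join all annotated transcripts of a gene, 30730 bases for Zbtb20, so the order depends on the annotation. In adults the order was Lhx2 (152 ± 84.3 CPM per kb, SD, n = 9), Dbx2 (136 ± 70.3), Nfix (61.2 ± 18.7), Nfic (32.1 ± 8.04), Rorb (20.2 ± 9.37), Emx2 (16.8 ± 10.0), Nfib (14.3 ± 1.94), Nfia (12.6 ± 4.53), Zbtb20 (7.27 ± 1.64) and Pax6 (3.68 ± 1.51). At P1 it was Nfix (109 ± 47.2, SD, n = 8), Lhx2 (78.8 ± 41.5), Nfib (35.6 ± 7.88), Nfia (17.4 ± 6.60), Dbx2 (15.3 ± 18.5), Emx2 (11.5 ± 5.63), Nfic (10.7 ± 3.88), Zbtb20 (7.99 ± 3.19), Rorb (6.83 ± 4.15) and Pax6 (4.17 ± 1.85). In adults the bands of 1 SD around the means overlapped for all neighbours in this order except Nfix with Nfic and Zbtb20 with Pax6. At P1 they overlapped for all neighbours except Nfib with Nfia. Pax6 had the lowest mean at each of the 6 ages.

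All 10 members differed between replicate sets with sex and age in the model, as did 69.1% of all genes. Set 3 against set 1 (53% of all genes called) had lower levels of Lhx2 (−2.01 ± 0.19), Dbx2 (−2.16 ± 0.27), Emx2 (−1.81 ± 0.24), Pax6 (−1.47 ± 0.16), Nfia (−1.29 ± 0.15), Nfic (−0.93 ± 0.18) and Rorb (−0.74 ± 0.18). Set 6 against set 1 (34.3% called) had the same 7 lower, Dbx2 by the most (−2.69 ± 0.33), and Zbtb20 too (−0.92 ± 0.18). The second run against set 1 (32.6% called) had Lhx2, Pax6, Emx2, Dbx2 and Nfic lower and Nfib higher, at 0.52 ± 0.19. In set 4 (17.9% called) Nfix was higher, at 0.58 ± 0.14, and Rorb lower, at −0.79 ± 0.19. In set 2 edgeR called 0 members and 0 genes (0%), with Nfix, Zbtb20 and 1126 genes in all under an unadjusted p of 0.05, and no other tool was run on it. Nfib and Nfix were not called in sets 3 and 6, with differences of −0.16 and −0.25 in set 3 and −0.12 and 0.14 in set 6.

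Mature astrocyte markers fell in the same sets: 19 of 20 in set 3, 20 in set 6, 18 in the second run and 13 in set 4, with none higher. Neuronal markers rose, 20 of 20 in set 3, 19 in set 6 and 18 in the second run. The summed astrocyte level was 1106 to 16682 CPM in set 3, 917 to 4837 CPM in set 6 and 1452 to 4652 CPM in the second run, against 5557 to 29771 CPM in set 1. The summed neuronal level was 5791 to 11494 CPM in set 3, 8899 to 13986 CPM in set 6 and 7892 to 14669 CPM in the second run, against 1930 to 4114 CPM in set 1. These summed levels are not adjusted for age: the second run held only P7 libraries, while set 1 held libraries from P1 to adult. The part of the cell makeup in the members' set differences was not tested. Without sets 3 and 6 and the second run, 2 members still differed between the remaining sets 1, 2 and 4: Nfix (adjusted p = 0.00117) and Rorb (adjusted p = 0.00406).

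**Figure D5:**
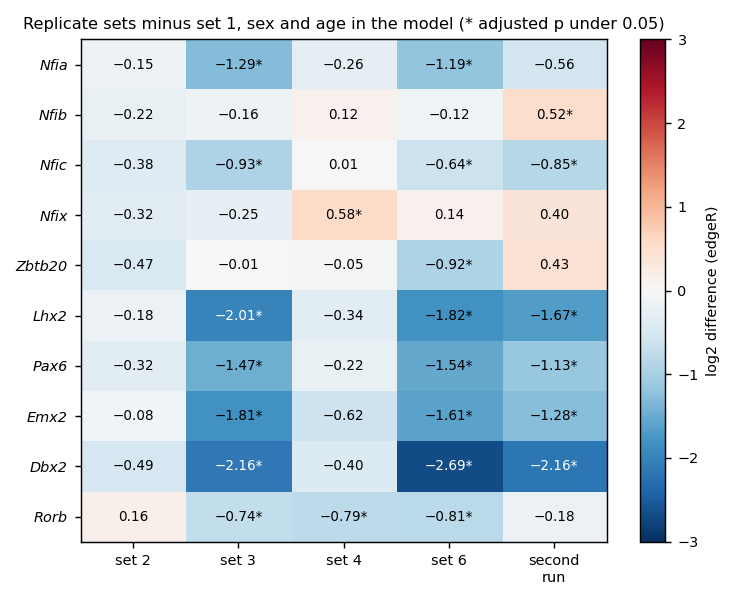
Difference of each replicate set from set 1 for the 10 members, on the log2 scale, from the edgeR model with sex and age as terms. Asterisks mark an adjusted p under 0.05; the columns of sets 3 and 6 and the second run are lowest for Dbx2, Lhx2 and Emx2 and near 0 for Nfib and Nfix in sets 3 and 6.

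No member was called different between the labelled sexes. As a mean over the 6 ages, female minus male differences lay between −0.02 and 0.23, 8 higher and 2 lower, and edgeR called 0 members, with 0 under an unadjusted p of 0.05, against 6 of all genes (0.0284%). DESeq2 and limma voom also called 0 members. Within ages edgeR, DESeq2 and limma voom called 0 members at each of the 6 ages, and edgeR called 0 genes (0%), with 329 to 1350 genes under an unadjusted p of 0.05 and 60 to 272 called by DESeq2. Under an unadjusted p of 0.05 were Dbx2 at P1 (1.00 ± 0.44, adjusted p = 0.651), Lhx2 at P7 (0.57 ± 0.27, adjusted p = 1) and Zbtb20 (0.51 ± 0.21) and Rorb (0.70 ± 0.25) at P14, both with adjusted p = 1. Rorb at P14 had 106 to 276 CPM in the 5 females and 68.6 to 204 CPM in the 5 males, and the sexes overlapped. In the model with the replicate set as a term, the female minus male difference was above 0 for all 10 members at P7 and at P14 and below 0 for all 10 in adults, none of them called. The plain means did not all share these signs: adult Dbx2 averaged 472 ± 228 CPM in females (SD, n = 4) and 469 ± 282 CPM in males (SD, n = 5). A difference of the age course between the sexes was called by edgeR for 0 members and 0 genes (0%), with 0 members and 778 genes under an unadjusted p of 0.05, and by limma voom for 0 members. The 11 libraries whose sex-linked transcripts or names go against the label stand in these groups as labelled. Without them 0 members were called as well, but edgeR called 4 to 5 genes at each age, where it called 0 with them.

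Genes that work with or beside the members were counted from lists, against 41.3% of all genes called and an all-gene median of 0.06. Of 11 partners and reported targets of nuclear factor I, 7 rose and 2 fell between adult and P1 libraries, with a median of 0.95. Gfap, an intermediate filament gene of astrocytes, had 265 to 3107 CPM in adults and 84.3 to 899.7 CPM at P1 (2.70 ± 0.28). Sox9, the partner of Nfia in early gliogenesis, had 136 to 856 CPM in adults and 72.4 to 485 CPM at P1 (1.39 ± 0.24). Aqp4, the water channel of astrocyte endfeet (1.50 ± 0.27), and Hes1, a Notch effector (1.27 ± 0.22), rose too. Fabp7, a fatty acid binding protein of radial glia, had 136 to 1380 CPM in adults and 3324 to 19191 CPM at P1 (−4.09 ± 0.47). Ezh2, the methyltransferase of Polycomb complex PRC2, had 3.49 to 10.3 CPM in adults and 19.6 to 73.1 CPM at P1 (−3.08 ± 0.29), without overlap.

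Among paralogues of the members, Rora, the relative of Rorb, rose. It had 77.8 to 239.8 CPM in adults and 0.141 to 49.9 CPM at P1 (2.79 ± 0.35), without overlap. Dbx1, the relative of Dbx2, was at 0 in all 9 adults and at 0 to 0.916 CPM at P1, so no fold is given. Emx1 (−0.28 ± 0.25) and Lhx9 (−2.38 ± 1.00) did not pass.

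Of 14 other regional and progenitor transcription factors of the cortex, 1 rose and 7 fell, with a median of −0.40. Hopx, a homeodomain-only cofactor, rose (2.27 ± 0.30), and Meis2 (−1.02 ± 0.13), Sp8 (−3.67 ± 0.50), Neurog2 (−4.93 ± 0.83) and Eomes (−4.73 ± 0.93) fell. Neurog2 and Eomes act in neuronal progenitors, and had 0 to 2.27 and 0 to 1.30 CPM in adults. Of 10 other astroglial transcription factors, 5 rose and 0 fell, with a median of 0.90, among them Id4 (1.59 ± 0.23), Sox2 (0.97 ± 0.21), Rfx4 (1.56 ± 0.40) and Sox9, which stands in both lists. The part of the astrocyte markers, 19 of 20 of which were also higher in adults, in these counts was not tested.

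Some members tracked each other over the 53 libraries. After the replicate set was removed from log2 CPM, Pearson's r was 0.83 for Nfib with Nfix, 0.82 for Nfic with Dbx2, 0.80 for Dbx2 with Rorb and 0.79 for Lhx2 with Emx2, and it was −0.72 for Nfib with Nfic and −0.78 for Nfib with Dbx2. The genes most like Dbx2 were Car2 (r = 0.96), Slc25a18 (r = 0.96) and Baalc (r = 0.96). Nfib was most like Sox11 (r = 0.95), Sox4 (r = 0.94) and Ttc28 (r = 0.93). Among the genes most like Nfix were Ttc28 (r = 0.88) and Tsn (r = 0.83). Nfic was most like Chchd10 (r = 0.93), Sfxn5 (r = 0.93) and Glul (r = 0.92), and Lhx2 like Dazap2 (r = 0.91), Mid1ip1 (r = 0.90) and Sox2 (r = 0.89). For Rorb they were Adora1 (r = 0.87), Ugp2 (r = 0.86) and Fam217b (r = 0.85), for Emx2 Zcchc24 (r = 0.85), Bag1 (r = 0.83) and Golph3 (r = 0.81), and for Nfia Wwtr1 (r = 0.82), Npas3 (r = 0.77) and Unc119b (r = 0.76). Pax6 was most like Snhg18 (r = 0.77), H2afv (r = 0.75) and Cdk2ap1 (r = 0.73), and Zbtb20 like Crebbp (r = 0.65), N4bp1 (r = 0.65) and Hdgf (r = 0.63). These values describe 11113 genes over libraries that share their age, RNA source and cell makeup.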

How the data were processed

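Ribosome-bound RNA of cortical astroglia was sequenced in 53 libraries, 1 a mouse, as strand-marked poly(A) libraries per the labels' protocols. The deposited values are raw counts per gene. The submitters' processing notes name CASAVA, HISAT2, SAMtools, featureCounts and GRCm38.p5. The annotation release and the strand setting of counting were not given in the sources used here. No table column was left unused, and filterByExpr of edgeR removed 0 genes.

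Tests on these counts used R 4.3.3 and edgeR 4.0.16, with TMM factors and a robust quasi-likelihood F test: 12 sex-by-age groups and the replicate set as terms, adjusted p by Benjamini-Hochberg over 21118 genes. P-values reflect the spread between single mice. Libraries of the same set deviated together: the correlation of their deviations from the group means had a median of 0.46 over 223 pairs, 209 of them over 0.1, and of −0.12 over 1055 pairs of different sets. The set is taken from the number in the description name, and what it stands for is not stated. In simulated adult against P1 counts for 21118 genes, 65% of log2 changes of 1 and 99% of 2 were recovered, with 7 false calls among 20918 unchanged genes. The changed genes were drawn from those with a mean of at least 5 CPM. The simulated counts held no replicate-set effect, and their spread followed the trend over genes and not each gene's own. These rates therefore do not give the power or the false calls in the real counts.

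Levels per kilobase use merged exons of GENCODE M21 (GRCm38), which held 21021 of the 21118 gene IDs. The members and all lists were chosen with earlier results of these data known. All 10 members are named in each main comparison, of each pathway list up to 4 called genes a direction by adjusted p, and for each member the 3 genes of highest correlation among those with a mean of at least 5 CPM, predicted genes left out. Some genes that this rule names, and the counts of the list of paralogues, are not reported here. Alternatives were other normalization, filters, DESeq2 1.42.0, limma 3.58.1 voom, no replicate block, 1 sex, and libraries or sets left out. Fits with 1 library left out kept the trend of spread over genes estimated from all 53 libraries.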

Additional observations from a re-analysis of the deposited data

Results flagged for a closer look

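In 8 cases a member's level in 1 library stood apart from the others of its sex and age, by a gap test (Dixon's, 95%) that flags about 1 in 20 groups by chance. In all, 100 combinations of a member and a group of 4 to 10 libraries were tested. They share libraries and are not independent, so that rate gives no expected number to set beside the 8 cases. The gap test also takes no account of the replicate set.

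Of the low values, 4 fell in set 3. Lhx2 was 119 CPM in P1 male 3, against 460 to 511 CPM in the other P1 males. Emx2 was 13.2 CPM in the same library, against 43.2 to 51.6 CPM in the others. Pax6 was 15.6 CPM in adult female 3, against 46.8 to 57.5 CPM in the other adult females. Dbx2 was 139 CPM in that library, against 515 to 645 CPM. The other low values fell in set 6: Dbx2 was 109 CPM in P14 female 6, against 359 to 506 CPM in the other P14 females, and Zbtb20 was 74.1 CPM in P7 female 6, against 147 to 263 CPM in the other P7 females.

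The high values were in other sets. Nfix was 680 CPM in adult male 4, against 379 to 448 CPM in the other adult males. Rorb was 185 CPM in P1 female 1, against 50.9 to 63.1 CPM in the other P1 females.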

How the results depend on the processing

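The 7 member calls of adult against P1 stayed 7 when any 1 of 17 libraries was left out, and ranged from 5 to 7 under 13 other settings; the calls over all 6 ages ranged from 7 to 9 with 1 of 53 libraries left out, and from 6 to 9 otherwise. Sex comparisons stayed at 0 members throughout. The calls of the small steps changed with several settings. With no replicate block, 0 members were called in P4 against P1 and 0 in P14 against P7 (2 each with it), and 5 in adult against P1. That setting kept a term for the second run alone. P4 against P1 also had 1 without the libraries against the labelled sex, 0 without set 3, 0 without sets 3 and 6 and the second run, and 1 to 2 with 1 library left out. P7 against P4 (0) had 1 without the 3 libraries of low gene number, 1 by DESeq2 and 0 to 2 with 1 library left out. P14 against P7 (2) had 0 without the libraries against the labelled sex, 1 without the second run, 0 without set 3, 0 without sets 3 and 6 and the second run, and 1 to 4 with 1 library left out. The replicate set term called 10 members, and 2 without sets 3 and 6 and the second run. Within sets, 7 members kept 1 direction, 6 to 8 with 1 library left out. Zbtb20, adult minus P1, not called, changed sign to 0.073 without set 3, 0.16 in the labelled males, 0.025 without adult male 1 and 0.097 without P1 female 3, within −0.15 to 0.097 with 1 library left out (main −0.05). Of 1670 member values under alternatives, 1608 kept their call and, where they were differences, their direction. The values from the test over all 6 ages and from the replicate set test have no direction. Members not called in a step between neighbouring ages or between the sexes are not among the 1670, so new calls there do not enter. The causes were not tested.

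Counts over all genes moved most in the small steps. P4 minus P1 had 93 genes, against 0 with no replicate block, 1 without set 3 and 670 by DESeq2. P7 minus P4 had 352, against 1 to 1093, P14 minus P7 had 697, against 4 to 1617, and P35 minus P14 had 242, against 0 to 1049. Adult minus P35 had 0, and 114 by DESeq2. Adult minus P1 had 8718, against 4932 in labelled females, 5664 in labelled males and 5600 without sets 3 and 6 and the second run. The age test had 9190, against 5248 with no replicate block, 6107 without set 3 and 4700 without sets 3 and 6 and the second run, and the set test 14585, against 9309 and 1947 in those last 2 settings. Female minus male as a mean over ages had 6, against 0 and 0 there and 101 by DESeq2. At single ages it had 0, against 60 to 272 by DESeq2 and 4 to 5 without the libraries against the labelled sex. With 1 library left out, these counts ran from 19 to 418 for P4 minus P1, from 31 to 635 for P7 minus P4, from 74 to 1430 for P14 minus P7 and from 46 to 556 for P35 minus P14. Leaving out sets also leaves fewer samples.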
